A study of Drosophila melanogaster with 2 samples.

Results

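The 32 genes described here encode the release machinery of synapses, the enzymes and transporters of neurotransmitters, and ion channels and receptors. They were listed as genes of differentiated neurons, though GluRIIA encodes a receptor subunit of the neuromuscular junction. They were taken by gene symbol from a list chosen for these functions, and all 32 were found among the 13968 protein-coding genes of the annotation used. The study mapped where Sequoia, the zinc finger protein encoded by seq, binds chromatin, using ChIP-seq on intact Drosophila melanogaster embryos aged 0 to 24 h. The embryos were of the strain seq-GFP, which expresses a fusion of seq with eGFP, and the fusion was precipitated with anti-GFP after sonication. Whether endogenous untagged Sequoia was also present is not given in the labels. There was 1 group with 2 biological replicates, and no untreated or mutant group. The labels name a possible control experiment, which is not analysed here, and read depth is unknown. Of the conservative set of peaks, which the authors derived from both replicates, 4099 lay on the chromosome arms, and 24 of these were at the listed genes.

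Synaptic vesicles fuse with the membrane when SNARE proteins, among them neuronal Synaptobrevin, Syntaxin and SNAP-25, zip together under the control of Rop, Unc-13 and Complexin, with Synaptotagmin as the calcium sensor. Bruchpilot and Rim organise the active zone around the calcium channel encoded by cac. The gene para encodes the voltage-gated sodium channel, and Sh, eag, sei and slo encode potassium channels. Each transmitter has its own enzymes and transporters, such as ChAT and VAChT for acetylcholine and Gad1 for GABA. Many of these genes are known for their roles in mature neurons, whereas Sequoia is known for its part in neuronal fate and in the growth of axons and dendrites.

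A peak counted at a transcription start site (TSS) when its summit lay within 500 bp of the start of any transcript of the gene. A gene body peak had its summit between the annotated ends of the gene, and a flanking peak lay within 5 kb of either end. Peak strength is the authors' signal, which ranks peaks within a list and has no unit. The irreproducible discovery rate (IDR) is the authors' estimate of how poorly a peak's rank repeats, and conservative peaks had an IDR of up to 0.01. Signals in single replicates come from each replicate's own ranked list, at the peak whose summit was nearest among those overlapping. In whole embryos, binding in fewer cells and weaker binding per cell cannot be told apart.

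In the conservative set, the listed genes carried Sequoia at their start about as often as all protein-coding genes. A conservative TSS peak was present at nSyb, brp, Gad1 and sei, 4 of 32 genes (12.5%, exact 95% interval 3.51 to 29.0), against 13.8% of all protein-coding genes. The peak at nSyb was weak, with a signal of 18.8. With peaks of signal under 60 set apart, 3 of 32 genes remained (9.38%, exact 95% interval 1.98 to 25.02), against 13.6% of all protein-coding genes. Both shares lay near those of all genes, and intervals cover counting error only.

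Sequences are shown for a few peaks on which this description turns. They are the conservative TSS peak of Gad1, the strongest peak inside any listed gene (ChAT), the intronic peak of Syn, and the TSS peaks of comt and Syt1 that only the pooled set holds. They are plus-strand dm6 sequence from the RefSeq assembly, reaching 50 bases to either side of the summit, except that the Gad1 window is cut to 89 bases to leave out an untranslated region. Capitals mark matches to the searched motifs, which are ACAGTG in Syn, CAGCTG in Syt1 and TAATTA in comt.
Gad1, 3L:4088967-4089055: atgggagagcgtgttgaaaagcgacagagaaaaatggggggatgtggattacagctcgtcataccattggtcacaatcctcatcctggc
ChAT, 3R:18719975-18720075: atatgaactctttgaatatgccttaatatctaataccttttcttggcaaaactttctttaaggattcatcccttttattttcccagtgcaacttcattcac
Syn, 3R:10203740-10203840: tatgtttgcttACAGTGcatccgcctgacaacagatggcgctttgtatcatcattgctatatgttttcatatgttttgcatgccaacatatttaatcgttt
Syt1, 2L:2800131-2800231: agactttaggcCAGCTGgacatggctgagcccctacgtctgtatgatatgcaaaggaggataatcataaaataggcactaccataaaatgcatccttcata
comt, X:13258858-13258958: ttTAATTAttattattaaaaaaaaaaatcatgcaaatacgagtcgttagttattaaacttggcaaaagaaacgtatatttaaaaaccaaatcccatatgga

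The strongest conservative TSS peak belonged to Gad1, the gene of glutamic acid decarboxylase, which makes GABA. Its peak (3L:4088810-4089199) had its summit 261 bp upstream of a Gad1 TSS, with a signal of 151 and rank 1372 of 4099. Replicate 1 gave 102 there and replicate 2 gave 47.5, so the peak was in the set of replicate 1 only. The summit lay in a coding exon of CG14989 and 126 bp upstream of a CG14989 TSS, so it cannot be assigned to either gene. Without it, 3 genes have a TSS peak that is nearer to their own start than to any other. The share of all protein-coding genes under that rule was not computed, so this count has no comparison.

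The TSS peak of sei was present in both replicates. The gene sei encodes the Seizure potassium channel, of the ERG type. The summit of its peak (2R:24048903-24049292) lay 105 bp upstream of an internal sei TSS, in an intron of its longer transcript, with a signal of 149. The value was 84.7 in replicate 1 and 60.3 in replicate 2, and both were in the replicate's own set. Among the 4 genes it was the only TSS peak held by both replicate sets.

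At brp, which encodes the active zone scaffold Bruchpilot, the summit lay 32 bp into the gene, in the 5' untranslated region (2R:9503602-9503991). Its signal was 112, with 76.0 in replicate 1 and 38.7 in replicate 2, and it was in the set of replicate 1 only. At nSyb, the gene of neuronal Synaptobrevin, the stronger of a pair of summits lay 523 bp downstream of an internal TSS, just outside the TSS window (3L:1636894-1637283, signal 88.1). The weak one (18.8) lay 202 bp from it, 321 bp downstream of the same TSS. Both overlapped the same replicate peaks, at 63.6 in replicate 1 and 28.7 in replicate 2. The replicate 1 peak had its own summit outside the TSS window. Within 500 bp of an nSyb TSS the strongest ranked peak of replicate 1 was 28.4 (IDR 0.393). The window around the stronger nSyb summit lay in the 5' untranslated region and held a run of the GAGAGA element, bound by the GAGA factor Trl.

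Weak peaks of this kind recurred elsewhere in the list. Of the 24 peaks, 3 had a signal under 60, at nSyb (18.8), downstream of Csp (9.06) and upstream of eag (2.67). Each lay between 201 and 222 bp from a stronger conservative summit. In the whole conservative set 282 of 4099 peaks (6.88%) were under 60, and 235 of these (83.3%) had a summit of 60 or more within 300 bp. The IDR of the weak peak was close to that of its neighbour, as upstream of eag, where the peaks of 2.67 and 116 had IDRs of 0.00115 and 0.00116.

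The pooled set, which the authors also made from both libraries, added TSS peaks at Syt1 and comt, for 6 of 32 genes against 17.3% of all protein-coding genes. With signals of 60 or more it held 5, against 16.9% of all protein-coding genes. Syt1 encodes Synaptotagmin, the calcium sensor of release, and comt encodes the fusion ATPase NSF. The Syt1 summit lay 202 bp upstream of its TSS with a signal of 65.0, and replicates 1 and 2 gave 33.9 and 33.7. The comt summit lay 113 bp upstream with a signal of 71.9, with 47.4 in replicate 1 and 28.5 in replicate 2. Neither was in the set of either replicate, and their IDRs between the replicates were 0.0145 and 0.0125.

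**Figure D1:**
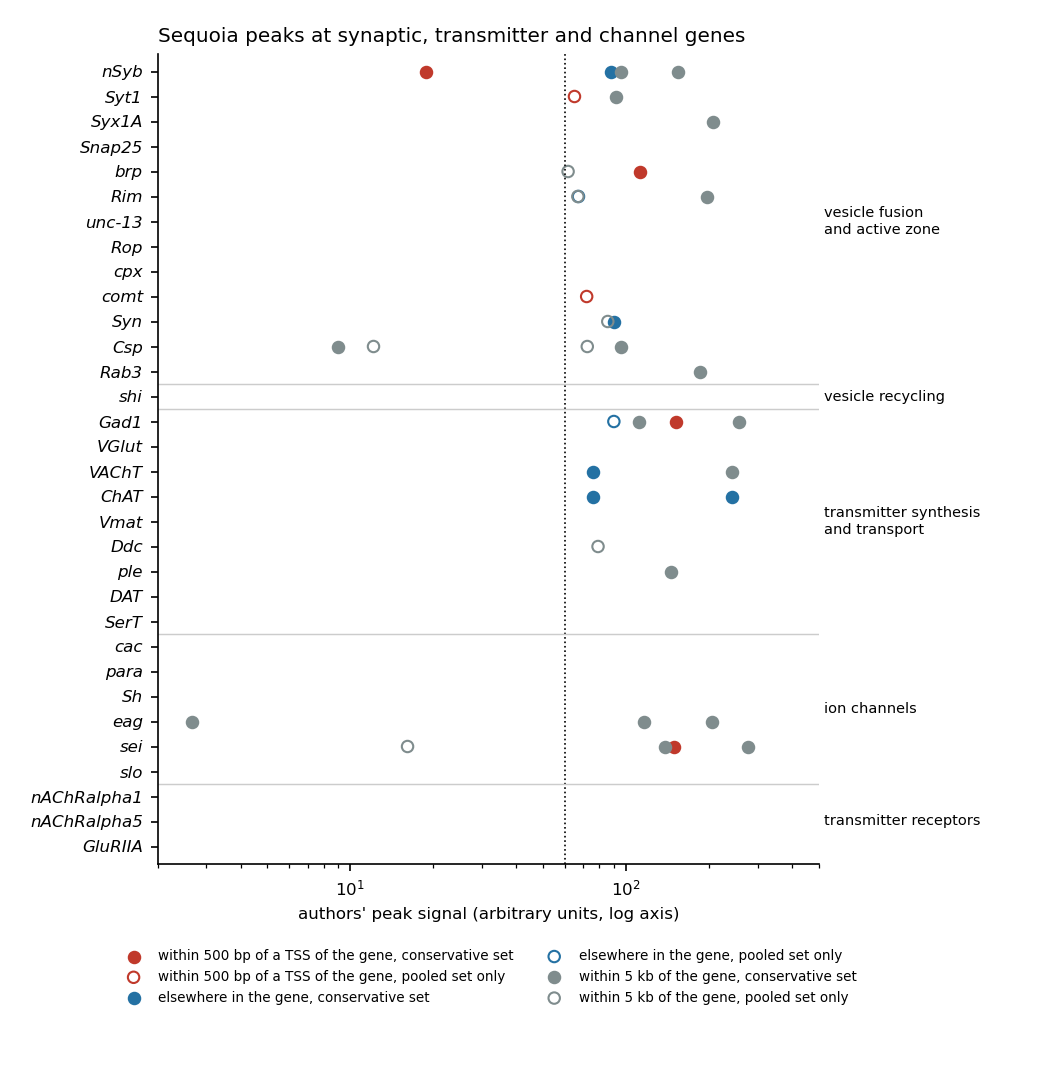
Authors' signal (log axis) of each peak at the 32 genes, grouped by role, with filled points for the conservative set and open points for peaks in the pooled set only, and a dotted line at a signal of 60. Most points are flanking peaks (grey), 4 genes have a filled red TSS point, and the nSyb one lies left of the line at 18.8.

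The other starts were read from the ranked lists of the replicates, which reach below the threshold. These genes were picked for lacking a conservative TSS peak, so high values were largely left out by that choice. For the 28 genes without a conservative TSS peak, the strongest ranked peak within 500 bp of a TSS ran from 0 to 50.7 in replicate 1, with a median of 28.1. In replicate 2 it ran from 0 to 33.7, with a median of 14.1. A value of 0 means that no peak was listed there, which was so for 2 genes in replicate 1 and 9 in replicate 2. Syx1A, which encodes Syntaxin, had the highest of these values in replicate 1 (50.7, IDR 0.00703) and no listed peak in replicate 2.

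Over all 32 genes the median of this value was 28.4 in replicate 1 and 17.6 in replicate 2, against 18.5 and 13.8 for all protein-coding genes. The listed genes have a median of 1.5 TSSs against 1 for all protein-coding genes, and its part in these medians was not tested. At ChAT and VAChT, which share a TSS, the value was 5.77 in replicate 1 and 0 in replicate 2. At para it was 20.04 and 10.5, at cac 24.7 and 0, and at Sh 22.6 and 15.5 in replicates 1 and 2. Snap25, the gene of SNAP-25, had none in either replicate.

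**Figure D2:**
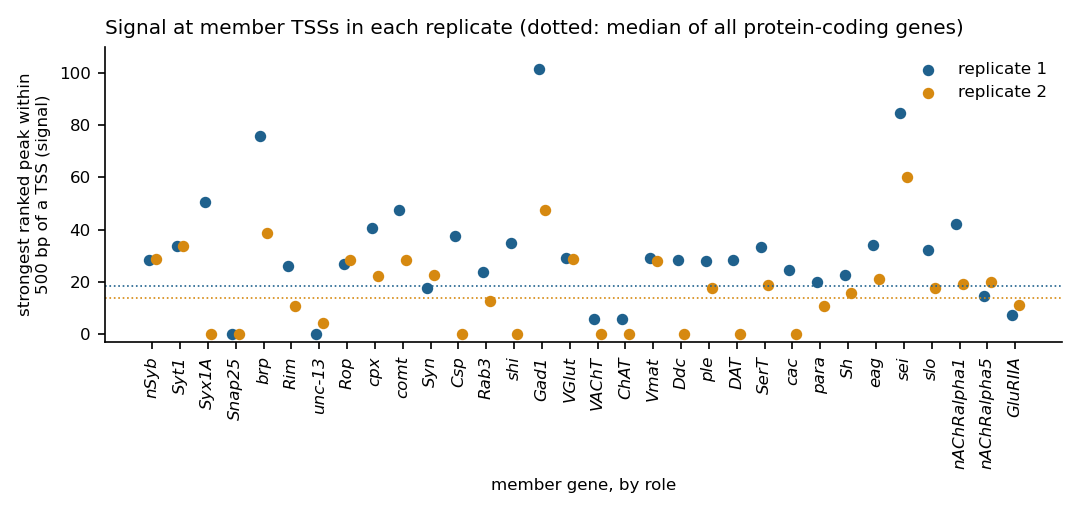
Signal of the strongest ranked peak within 500 bp of a TSS of each gene in replicate 1 (blue) and replicate 2 (orange), with dotted lines at the medians of all protein-coding genes (18.5 and 13.8). Only brp, Gad1 and sei rise above 60 in replicate 1, and sei alone reaches 60.3 in replicate 2.

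Peaks inside the genes differed with gene length, and the longest genes had none. A conservative gene body peak was present in nSyb, brp, Syn, VAChT, ChAT and sei, 6 of 32 genes (18.8%), against 11.2% of all protein-coding genes. The listed genes are long, with a median of 17.9 kb against 2.16 kb for all protein-coding genes. Shares are therefore given by class of gene length, but lengths within a class were not matched. The 12 listed genes under 10 kb total 64.6 kb, and the 11983 protein-coding genes of that length 30085.5 kb. Of 12 listed genes under 10 kb, 2 had a body peak (16.7%, against 5.91% of all protein-coding genes of that length). Their density was 4.64 peaks per 100 kb (exact Poisson interval 0.958 to 13.6, 3 peaks), against 2.82 for all protein-coding genes under 10 kb. Among the 3 are both summits of the nSyb pair, 202 bp apart, which the interval counts as separate peaks. Of 10 listed genes between 10 and 40 kb, 4 had one (40%, against 39.2% of all genes of that length). Their density was 1.91 peaks per 100 kb (exact Poisson interval 0.521 to 4.90, 4 peaks), against 3.65 for all protein-coding genes of that length. The pooled set added Gad1 and Rim and lacked the VAChT peak, which left 7 of 32 genes, against 13.7% of all protein-coding genes. By length it had 2 of 12 genes under 10 kb (7.85% of all genes of that length) and 4 of 10 between 10 and 40 kb (45.5%).

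Of the 10 genes of 40 kb or more, none had a conservative body peak, whereas 54.5% of the 468 protein-coding genes of that length did. With 10 genes, 3 counts allow a share of up to 30%. These genes were Snap25 (225 kb), Sh (139 kb), para (78.1 kb), nAChRalpha1 (63.3 kb), eag (54.5 kb), nAChRalpha5 (54.2 kb), cac (53.8 kb), slo (49.1 kb), unc-13 (44.5 kb) and Rim (43.8 kb). Together they span 805 kb, with 0 peaks per 100 kb (exact Poisson interval 0 to 0.458). Across all 468 protein-coding genes of that length the density was 2.09 peaks per 100 kb (exact Poisson interval 1.94 to 2.24). Neither replicate's own set had a body peak in any of the 10 genes. The pooled set had 1, against 59.6% of all protein-coding genes of that length, in an intron of Rim (signal 67.2, 39.5 in replicate 1 and 23.5 in replicate 2). The length limit of 40 kb was chosen after the values were seen, and with a limit of 20 kb 3 of 16 genes had a body peak, against 50.5% of all protein-coding genes of that length.

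Over all 32 gene bodies the density was 0.649 peaks per 100 kb (exact Poisson interval 0.261 to 1.34, 7 peaks), against 2.81 (2.70 to 2.92) for all protein-coding genes. With peaks of signal under 60 set apart it was 0.556 (6 peaks), against 2.59 for all protein-coding genes. Chromosomal surroundings differed for a pair of the long genes. Snap25 had no conservative summit within 1 Mb, the nearest being 1164 kb from the gene, and unc-13 lies on the small chromosome 4, where gene bodies held 0.393 peaks per 100 kb. Without Snap25 and unc-13 the density was 0.865 (0.348 to 1.78).

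**Figure D3:**
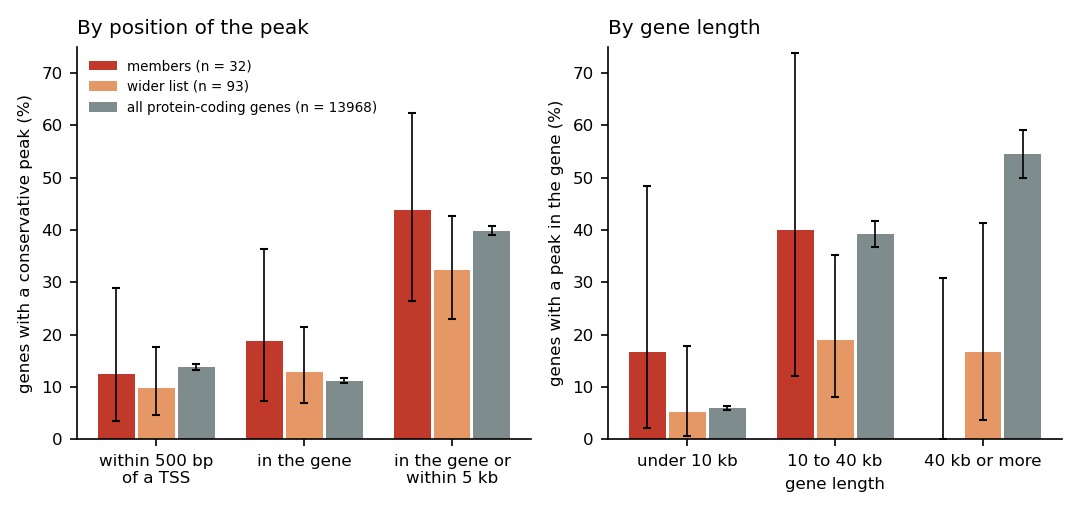
Share of genes with a conservative peak by position of the peak (left) and share with a gene body peak by gene length (right), with exact 95% intervals, for the listed genes, a wider list of synaptic genes and all protein-coding genes. At 40 kb or more the listed genes stand at 0 of 10 and all protein-coding genes at 54.5%.

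Summed over the same long genes, the ranked lists held fewer peaks per length than over all long genes. There were 32.8 ranked peaks per 100 kb of the 10 long genes in the list of both replicates, against 78.8 for all protein-coding genes of 40 kb or more. In replicate 1's list the density was 23.6 against 62.2, and in replicate 2's list 54.9 against 71.1. The density differed between the 10 genes in the list of both replicates. It was 2.22 per 100 kb in Snap25, 2.25 in unc-13 and 19.2 in para, and no ranked peak lay in cac. In nAChRalpha1 it was 74.3, in Sh 72.7 and in nAChRalpha5 66.4, near that of all long genes. In Snap25, replicate 1 listed 1 peak and replicate 2 listed 73, so the replicates differed widely there.

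The strongest ranked peak inside each long gene had a median signal of 46.4, against 90.3 for all protein-coding genes of that length. It was 36.1 in para, 45.5 in Sh, 47.4 in slo and 44.1 in eag, all with an IDR above 0.05. It reached 70.5 in nAChRalpha1, which encodes a subunit of the nicotinic acetylcholine receptor, with an IDR of 0.0281, outside the conservative threshold.

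**Figure D4:**
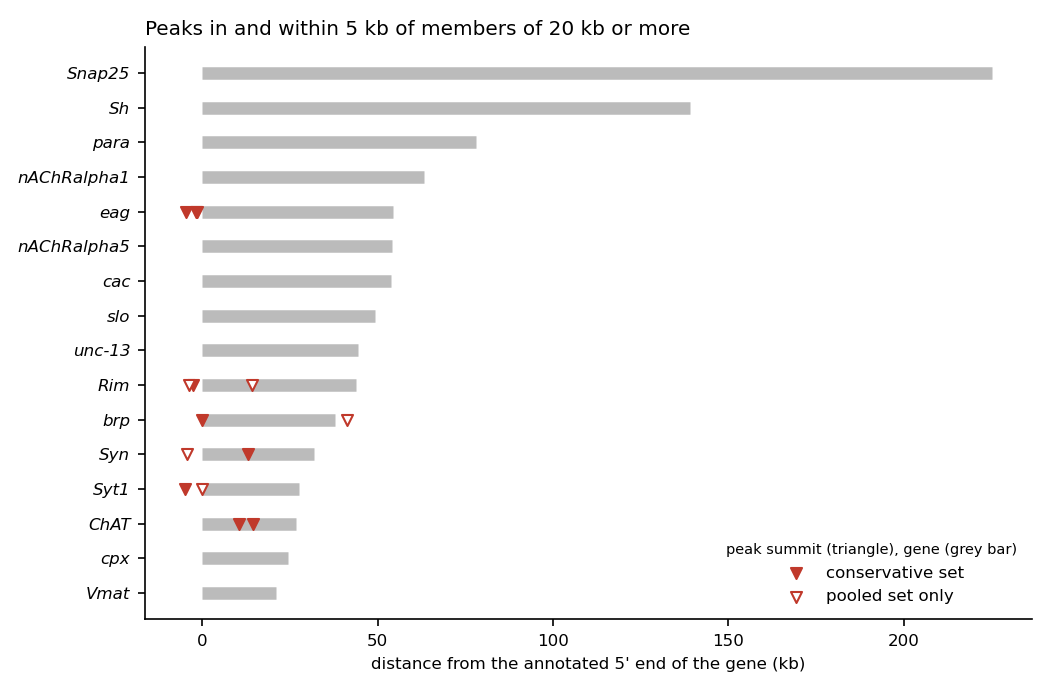
Peaks (triangles, filled for the conservative set and open for the pooled set only) along the 16 genes of 20 kb or more (grey bars), in kb from the annotated 5' end and including 5 kb of flank. Within the 10 longest bars there is no filled triangle and 1 open triangle, in Rim.

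The strongest peak within a listed gene was at the cholinergic locus. ChAT encodes choline acetyltransferase, and VAChT, nested in it, encodes the vesicular acetylcholine transporter, with a TSS in common. The peak at 3R:18719830-18720219 had a signal of 243 (rank 567), with 127 in replicate 1 and 106 in replicate 2, and was in both replicate sets. It lay in a ChAT intron, 14524 bp from the shared TSS and 1109 bp past the end of VAChT. The nearest TSS was that of lncRNA:CR46265, 402 bp away. A weaker peak lay in the 3' untranslated region of VAChT (75.6, with 41.3 in replicate 1 and 33.7 in replicate 2), outside both replicate sets.

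Syn, which encodes the vesicle protein Synapsin, had an intronic peak 13101 bp from its TSS (3R:10203595-10203984, signal 90.2). Replicate 1 gave 51.9 and replicate 2 gave 30.9, and the peak was in the set of replicate 1 only. Elsewhere in Syn, the strongest ranked peak of replicate 2 reached 60.7, and the lowest IDR in the gene in that replicate was 0.00159. Timp, a gene nested in Syn, had the nearest TSS, at 9217 bp.

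Some body peaks had a low IDR in 1 replicate only. In Gad1 the pooled set held an intronic peak (90.2) with 69.2 in replicate 1 (IDR 0.00128) and 17.2 in replicate 2. In VGlut, which encodes the vesicular glutamate transporter, the strongest ranked peak in replicate 2 reached 50.7, against 23.6 in replicate 1. The lowest IDR of any ranked peak in VGlut was 0.00698 in replicate 2 and 0.505 in replicate 1. In Syx1A the strongest was 54.8 in replicate 1 and 21.5 in replicate 2, and the lowest IDRs in the gene were 0.00534 and 0.0486.

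Most peaks counted at these genes were flanking, and many lay nearer to the start of a neighbour. A conservative peak in the gene or within 5 kb was present for 14 of 32 genes (43.8%), against 39.9% of all protein-coding genes. In the pooled set it was 16 of 32, against 46.3%. Of the 24 peaks, 4 were at a TSS, 4 elsewhere in a gene body and 16 in flanks, 8 of them upstream and 8 downstream. For 19 of the 24 the nearest TSS was that of an unlisted gene, and for 12 of these it lay within 500 bp. The same split for peaks at all protein-coding genes is not given here. Of those genes only 11.2% had a body peak, so flanking positions are not read as particular to the listed genes.

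The strongest of all was upstream of sei at 2R:24045254-24045444, with a signal of 275 (rank 434), 139 in replicate 1 and 142 in replicate 2. It lay in an intron of tsr, the cofilin gene, 2063 bp from the sei TSS and 1457 bp from a tsr TSS. Downstream of sei, a peak of 138 lay 10 bp from the TSS of eEF5, with 87.1 in replicate 1 and 48.5 in replicate 2.

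Downstream of Gad1, a pair of peaks lay in an intron of wit, which encodes a type II BMP receptor. The stronger reached 256, with 136 in replicate 1 and 135 in replicate 2, and the other reached 112, with 62.4 in replicate 1 and 65.4 in replicate 2. Both were in both replicate sets, unlike the Gad1 TSS peak. These peaks lay 3482 and 2923 bp past the end of Gad1.

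Among the release genes, Syx1A had a downstream peak of 206 in an intron of eIF4EHP (122 in replicate 1 and 97.2 in replicate 2). Rim, the active zone scaffold gene, had an upstream peak of 196 that lay 504 bp from a TSS of cpo (116 and 93.4 in replicates 1 and 2). Rab3, the gene of a vesicle GTPase, had an upstream peak of 185 that lay 141 bp from a TSS of CG7220 (83.4 and 96.4). All of these were in both replicate sets.

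The flanking peaks of nSyb, Csp and Syt1 were in 1 replicate set or none. Those of nSyb lay 107 bp from CG13928 (154, with 112 in replicate 1 and 42.3 in replicate 2) and 175 bp from Bgb (95.6, with 36.8 and 62.0). Csp, which encodes a vesicle chaperone, had one 48 bp from a TSS of Srpk79D (95.9, with 55.2 and 42.5 in replicates 1 and 2). That upstream of Syt1 lay 431 bp from daw, a gene of an activin-type ligand (91.6, with 50.3 and 36.2), and was in neither replicate set.

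The transmitter gene ple, which encodes tyrosine hydroxylase, had a peak of 145 at 4179 bp past its end, in both replicate sets (84.2 in replicate 1 and 65.4 in replicate 2). Ddc, which encodes the next enzyme of dopamine synthesis, had a peak in the pooled set only, 969 bp upstream of its TSS (79.1, with 51.8 and 24.8 in replicates 1 and 2). Upstream of eag, a peak of 204 lay 230 bp from pdgy and was higher in replicate 2 (131) than in replicate 1 (75.7). A further eag peak of 116 lay 68 bp from the TSS of lncRNA:CR44831 (83.9 in replicate 1 and 41.6 in replicate 2).

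No conservative peak lay in or within 5 kb of the other 18 genes. The 18 included the release genes Snap25, unc-13, Rop, cpx and comt, and shi, the dynamin gene of vesicle recycling. They also included VGlut, the monoamine genes Ddc, Vmat (vesicular transporter), DAT (dopamine uptake) and SerT (serotonin uptake), the channel genes cac, para, Sh and slo, and the receptor genes nAChRalpha1, nAChRalpha5 and GluRIIA, the last a glutamate receptor subunit of the neuromuscular junction. By role, a peak was present for 8 of 13 release genes, 4 of 9 transmitter genes, 2 of 6 channel genes and 0 of 3 receptor genes, against 39.9% of all protein-coding genes. These groups are small, with an exact 95% interval of 31.6 to 86.1% for the release genes, and the roles were not compared by a test. The median distance from a TSS to the nearest conservative summit was 11.8 kb for the listed genes and 9.86 kb for all protein-coding genes.

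Signals of the 24 peaks were moderate. Their median was 127 against 117 for all conservative peaks. Both replicates' own sets held 11 of the 24 (45.8%, exact 95% interval 25.6 to 67.2), against 49.8% of all conservative peaks. Another 8 were in the set of replicate 1 only (33.3%, against 23.8% of all conservative peaks). In that of replicate 2 only there were 3 (12.5%, against 9.86%), and 2 were in neither (8.33%, against 16.6%). Replicate 1's own set is the larger, with 4069 peaks on the arms against 2675 for replicate 2. For the 21 peaks of signal 60 or more, the median log2 ratio of replicate 1 to replicate 2 was 0.36 (range -0.79 to 1.41), against 0.21 for all such peaks. No rescaling between libraries is stated, so a ratio is read only beside that of other peaks.

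**Figure D5:**
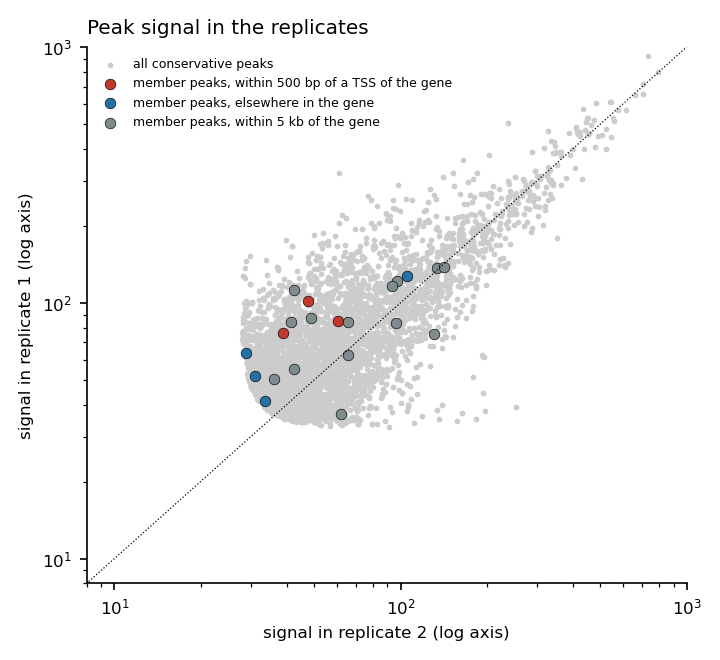
Signal in replicate 1 against replicate 2 (log axes) for all conservative peaks (grey dots) and for peaks of signal 60 or more at the listed genes, coloured by position, with a dotted line of equality. The listed genes' peaks lie within the cloud of other peaks, and those at TSSs and in gene bodies other than the ChAT peak reach at most 102 in replicate 1.

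Short motifs were counted on either strand up to 50 bases from each summit, and a match describes the sequence only. ACAGTG was present in 3 of the 24 windows, at Syn, in wit downstream of Gad1 and at eEF5 downstream of sei, against 7.25% of all conservative windows. GAGAGA was present in 1 window, at nSyb (7.42% of all windows), and CAGCTG in 1, at brp (3.73%). TATAAA was present in 2 windows (18.2%), and CAGGTG (2.44%), TAATTA (8.2%) and CACACACA (2.81%) in none. Up to 200 bases from the summit, ACAGTG was in 6 windows (29.6% of all windows), GAGAGA in 5 (28.5%), CAGCTG in 4 (21.2%) and TATAAA in 11 (44.2%). CAGGTG (10.9%), TAATTA (22.9%) and CACACACA (13.2%) were in 3 each.

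A wider list holds 93 further genes for the same functions. A conservative TSS peak was present for 9 of 93 (9.68%, exact 95% interval 4.52 to 17.6), against 13.8% of all protein-coding genes. A gene body peak was present for 12.9% of the wider list, against 11.2% of all protein-coding genes, and a peak in the gene or within 5 kb for 32.3%, against 39.9%. The strongest TSS peaks were at NaCP60E, a further sodium channel family gene (268), and at AP-2alpha, which encodes an endocytic adaptor (186). Next was CG10804, listed with the transporter genes (140), whose summit lay 471 bp from its TSS. There the strongest ranked peaks within 500 bp of the TSS were 31.5 in replicate 1 and 4.81 in replicate 2. Among channel genes Ca-beta had 115 and Irk1 94.3, and among release genes Rbp had 115, Snap29 112 and RhoGAP100F 106.

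Receptor genes of the wider list had no conservative TSS peak (0 of 33, exact 95% interval 0 to 10.6%), against 13.8% of all protein-coding genes. The wider list held 0.906 peaks per 100 kb of gene body (0.545 to 1.41), against 2.81 for all protein-coding genes. Of its 18 genes of 40 kb or more, 3 had a body peak (16.7%, exact 95% interval 3.58 to 41.4), against 54.5% of all genes of that length.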

How the data were processed

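Per the text files deposited with the samples, the authors made IDR thresholded and ranked peak lists on dm6 for each replicate and from both libraries. The lists also drew on a further shared file whose role is not stated. The sources used here do not name the aligner or peak caller. The deposited signal of a peak is its caller's value, the deposited score rises as IDR falls (lowest 830), and the ranked lists give the authors' -log10 of IDR. Depth is unknown. The ranked lists from both libraries hold 16 further columns of values that no label ties to a sample, and these were not used.

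Positions were set against Release 6 and Ensembl BDGP6.54 (release 115), without transposable elements, on 7 arms, counted from 1. Of 4100 conservative peaks 1 lay elsewhere. Assignment was tested on simulated summits. The tools were scipy 1.17.1, pandas 2.3.3, numpy 2.4.6 and matplotlib 3.10.9 in Python 3.11.15. With 1 group, counts are described beside all protein-coding genes, without tests. Replicates are separate biological samples per the labels.

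The members and lists were chosen with earlier results of these data known. By rule, every listed gene is named, with its TSS peaks, its strongest body and flanking peaks and its weak peaks, and 3 genes per group of the wider list. In that list 5 symbols were matched to another spelling or a synonym. Ranked values in gene bodies were chosen after seeing the data.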

Additional observations from a re-analysis of the deposited data

How the results depend on the processing

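Of 97 values recomputed under alternatives, 61 stayed within their limits and 36 moved. The counts are small, so single genes move them. For TSS and body peaks, the side on which the listed genes lie of all protein-coding genes changed with the setting. For a peak in the gene or within 5 kb, their share was the higher in every setting. Within 2 kb the shares were near, at 28.1% against 27.8%. The wider list's share with a TSS peak was below that of all genes in every setting. TSS peaks were at 12.5% of the listed genes against 13.8% of all genes in the conservative set, but at 18.8% against 17.3% in the pooled set and 28.1% (9 genes) against 19.8% at an IDR of 0.05. With 1 replicate left out they numbered 1 (replicate 2's own set, against 10.1% of all genes) to 3 (replicate 1's own set, 14.3%). There were 2 at an IDR of 0.001 (7.95% of all genes) and 2 with a 200 bp window (9.58%). With signals of 60 or more there were 1 to 3 with 1 replicate left out (7.49% of all genes for replicate 2's own set and 10.4% for replicate 1's), 5 in the pooled set (16.9%) and 6 at an IDR of 0.05 (18.8%, against 17.9% of all genes). Wider-list genes numbered 4 (10.1% of all genes) to 12 (14.3%) with 1 replicate left out, 15 pooled (17.3%), 3 at 0.001 (7.95%) and 16 at 0.05 (19.8%).

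Body peaks were at 18.8% of the listed genes against 11.2% of all genes in the conservative set, but at 6.25% (2 genes) against 6.41% at an IDR of 0.001, and 10 genes had one at 0.05 (17% of all genes). Within 2 kb 9 genes had a peak (27.8% of all genes). Density in the listed genes fell to 0.185 at an IDR of 0.001. In all protein-coding genes it was 3.71 (pooled), 1.82 to 2.86 with 1 replicate left out, 1.28 (0.001), 5.16 (0.05), 2.59 (signal of 60 or more) and 3.38 (any base of the peak). Of the 10 genes of 40 kb or more, 1 (pooled) and 2 (0.05) had a body peak, and 3 of 16 at a limit of 20 kb (50.5% of all genes of that length). For all genes of 40 kb or more the share was 59.6% (pooled), 45.7% to 54.1% with 1 replicate left out, 38.0% (0.001) and 67.3% (0.05). All 24 peaks overlapped a ranked peak at any IDR in both replicates, as did 4074 of all 4099 conservative peaks, so this does not set them apart. Up to 200 bases from the summit, matches numbered 5 (GAGAGA), 6 (ACAGTG), 3 (CAGGTG), 4 (CAGCTG), 3 (TAATTA), 11 (TATAAA) and 3 (CACACACA) of 24. No paired analysis was possible because there is 1 group. The unknown depth limits what a missing peak shows.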
